A study of Homo sapiens with 4 samples.

Results

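The 10 genes described here encode transporters that carry amino acids or lactate across the plasma membrane and that are commonly linked to MYC, a transcription factor that drives cell growth. They are SLC7A5, SLC3A2, SLC1A5, SLC38A1, SLC38A2, SLC7A6, SLC7A11, SLC43A1, SLC16A1 and SLC7A1, chosen by name, and all 10 were found among the 18885 genes of the expression table. The values come from RNA sequencing of MV4-11, a human acute myeloid leukemia cell line. The sh-NC group held 2 control libraries, and the sh-ANP32B group held 2 libraries of cells with an shRNA against ANP32B, a histone chaperone of the acidic leucine-rich nuclear phosphoprotein family. The labels give "none" as the shRNA of the control cells, whereas the study calls them sh-NC, so effects of transduction itself cannot be told apart from those of the knockdown. The cells are 1 line, no time point is given with the labels, and nothing says that the libraries of a group came from separate cultures, so the p-values measure only the spread between these libraries.

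The target came first. ANP32B was at 358 and 364 TPM in sh-NC and at 54.1 and 49.3 TPM in sh-ANP32B, which left 14.3% of the control level (log2 fold change -2.78, limma adjusted p = 2.89e-05). TPM is a level of transcripts scaled for gene length and for the total of each library. Of the 9 myeloid blast markers looked for, 7 had values. PTPRC, CD33, FLT3, SPI1, HOXA9 and MEIS1 were above 5 TPM in every library, whereas KIT lay between 1.17 and 3.48 TPM. No gene with values was matched to MPO or CD34. MEIS1 was called lower (here and throughout, a log2 fold change beyond 0.5 with a limma adjusted p under 0.05) and PTPRC and SPI1 higher, the last of these not with median-of-ratios scaling (0.41) or without sh-NC replicate 1 (0.49). MYC was at 376 and 370 TPM in sh-NC and at 240 and 236 TPM in sh-ANP32B (log2 fold change -0.65, adjusted p = 1.91e-04). Markers of monocytes and macrophages moved with the groups: 6 of the 7 with values, out of 11 looked for, were called higher in sh-ANP32B. Over all tested genes 17.9% were called higher. The summed level of these 7 markers rose from 520 and 515 TPM to 5610 and 5553 TPM. LYZ, the gene for lysozyme, carried most of that sum, at 471 and 463 TPM against 5308 and 5260 TPM. C1QA, among the 6, was below 1 TPM in both sh-NC libraries and was tested only through sh-ANP32B. With at least 1 TPM in every library, 4 markers were called higher. CSF1R was the marker not called, while no gene with values was matched to CD14, FCGR3A, CD163 or MRC1. Among the markers of other cell types, PECAM1 was called higher and CD79A and NKG7 were not called. The part of these markers in the results on the transporters was not tested. In bulk RNA, fewer cells of a kind and less RNA per cell cannot be told apart.

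The light-chain branch of the SLC7 family works in pairs. A catalytic light chain such as SLC7A5 (LAT1, large neutral amino acids), SLC7A6 (y+LAT2, cationic and neutral amino acids) or SLC7A11 (xCT, cystine in exchange for glutamate) is joined by a disulfide bond to the heavy chain SLC3A2 (4F2hc, CD98), which brings it to the cell surface. SLC1A5 (ASCT2) exchanges small neutral amino acids and is best known for glutamine, SLC38A1 and SLC38A2 (SNAT1 and SNAT2) take up glutamine and other small neutral amino acids with sodium, SLC43A1 (LAT3) lets large neutral amino acids through without a partner chain, SLC7A1 (CAT1), from the branch of SLC7 that needs no heavy chain, carries arginine, lysine and ornithine, and SLC16A1 (MCT1) carries lactate and pyruvate with a proton. In blood cells these carriers rise with activation and growth, and SLC7A5 with SLC3A2 supplies the leucine that the kinase complex mTORC1 senses.

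The promoters are shown first because MYC with its partner MAX binds the E-box CACGTG, and ATF4, the factor of the amino acid response, binds elements of the form TGATGNAA. The RefSeq promoter table (GRCh38.p14, 250 bases before to 50 bases after each start site) held 14 windows for 8 of the 10 genes, and SLC7A11 and SLC16A1 had none. CACGTG, which reads the same on both strands, was found in 1 window each of SLC7A5, SLC43A1 and SLC1A5, against 7.26% of all 35116 windows. The windows of SLC7A5 and SLC43A1 are printed as far as they lie outside annotated exons. The E-box is in capitals, and each sequence is on the minus strand and written 5′ to 3′.
SLC7A5 (chr16:87869508-87869757): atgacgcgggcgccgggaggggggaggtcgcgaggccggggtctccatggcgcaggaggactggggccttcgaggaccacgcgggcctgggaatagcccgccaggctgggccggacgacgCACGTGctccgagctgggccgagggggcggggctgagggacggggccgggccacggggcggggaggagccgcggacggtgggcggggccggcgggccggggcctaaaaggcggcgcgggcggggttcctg
SLC43A1 (chr11:57515781-57515952): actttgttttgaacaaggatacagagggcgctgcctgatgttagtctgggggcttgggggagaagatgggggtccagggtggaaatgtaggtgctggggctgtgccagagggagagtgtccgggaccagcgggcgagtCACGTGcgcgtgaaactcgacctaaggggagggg

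The ATF4 element TGATGNAA was searched on both strands, shares no letters with the E-box matches, and was found in 1 window each of SLC3A2, SLC1A5, SLC38A1 and SLC7A1, against 3.62% of all windows. The 30 bases around each match follow, with the element in capitals. SLC3A2 is on the plus strand and carries the element on the opposite strand, so that it reads TTACATCA here, and the others are on the minus strand.
SLC3A2 (chr11:62881719-62881748): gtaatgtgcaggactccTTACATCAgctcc
SLC1A5 (chr19:46784893-46784922): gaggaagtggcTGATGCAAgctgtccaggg
SLC38A1 (chr12:46266502-46266531): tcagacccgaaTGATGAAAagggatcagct
SLC7A1 (chr13:29595663-29595692): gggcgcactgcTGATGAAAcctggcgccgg
The elements of SLC3A2, SLC1A5 and SLC7A1 lie in annotated exons, as does the E-box of SLC1A5. No GENCODE transcript starts at the RefSeq start sites of the SLC1A5 and SLC38A1 windows that hold these matches. A match of letters is a description of these windows and does not show that a factor is bound there.

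All 10 genes passed the filter on low values, at least 1 TPM in at least 2 libraries, and were among the 16937 genes tested with limma on log2(TPM + 1). A gene was called at an adjusted p below 0.05 with a log2 fold change beyond 0.5. Of the 10, 5 were called lower in sh-ANP32B (SLC1A5, SLC7A5, SLC7A1, SLC16A1 and SLC3A2) and 2 were called higher (SLC7A6 and SLC7A11), whereas 10.1% of all tested genes were called lower and 17.9% higher. The other 3, SLC38A1, SLC38A2 and SLC43A1, had an adjusted p below 0.05 and lower levels in sh-ANP32B but lay inside the fold limit. Without that limit 8 of the 10 were lower, where 19.7% of all tested genes were, and 2 were higher, where 26.0% were. The median log2 fold change of the 10 was -0.51, compared with 0.08 over all tested genes, with quartiles at -0.26 and 0.45. In none of the 10 did the values of the groups overlap: 8 lay wholly lower and 2 wholly higher in sh-ANP32B, compared with 32.1% and 42.5% of all tested genes. With a fold limit of 1 none of the 10 was called, against 1.61% of all tested genes lower and 6.71% higher. At an unadjusted p below 0.05 and the limit of 0.5, the same 5 were lower and the same 2 higher, against 10.8% and 20.2%. With 2 libraries against 2, an exact two-sided permutation test of a single gene cannot go below p = 0.33, so the calls rest on the fit across all genes.

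**Figure D1:**
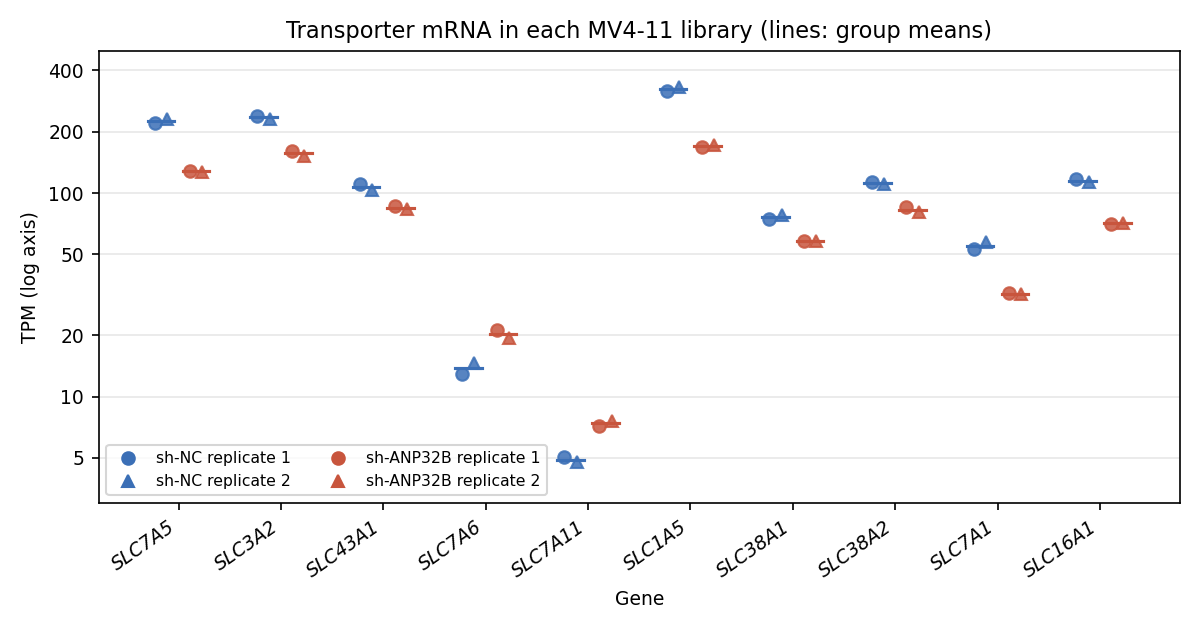
TPM of the 10 transporter genes in each library on a log axis, with a point for each sh-NC and sh-ANP32B library and a bar at each group mean. SLC1A5 was highest in both groups and SLC7A11 lowest, and the points of the groups are apart for each gene.

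The order of the control levels ran from 325 TPM for SLC1A5 to 4.89 TPM for SLC7A11. SLC3A2 (236 TPM) and SLC7A5 (225 TPM) came next, and their control libraries lay less than 1 TPM apart at the nearest. SLC16A1 (115 TPM) and SLC38A2 (112 TPM) overlapped in sh-NC, with SLC43A1 (107 TPM) just under them, followed by SLC38A1 (76.5 TPM), SLC7A1 (55.2 TPM) and SLC7A6 (13.8 TPM). In sh-ANP32B, SLC16A1 had dropped below SLC43A1 and SLC38A2, which overlapped each other at 84.5 and 82.8 TPM. The summed level of the 10 genes was 1265 and 1276 TPM in sh-NC and 819 and 803 TPM in sh-ANP32B.

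The heavy chain and its main light chain fell together. SLC3A2 (ENSG00000168003, plus strand of chr11:62856004-62888880) was at 239.8 and 232 TPM in sh-NC and at 161 and 152 TPM in sh-ANP32B. Its mean went from 236 ± 5.83 to 157 ± 6.49 TPM (SD, n = 2 libraries each), which is 66.6% of the control level, with a log2 fold change of -0.58 (SE 0.047, limma adjusted p = 4.69e-04). SLC7A5 (ENSG00000103257, minus strand of chr16:87830023-87869507) was at 219.6 and 231 TPM in sh-NC and at 129.0 and 128 TPM in sh-ANP32B. This left 56.9% of the control level, with a log2 fold change of -0.81 (SE 0.044, adjusted p = 1.80e-04), and only 3.78% of all tested genes had a lower log2 fold change. Counting could split reads between SLC7A5 and its near-identical copies SLC7A5P1 and SLC7A5P2, which were listed at no more than 16.3 TPM in any library. An unnamed gene on the opposite strand, ENSG00000260466, shares 271 exonic bases with SLC7A5.

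SLC7A6 and SLC7A11, the other light chains among the 10 genes, went the opposite way from lower levels. SLC7A6 (ENSG00000103064, plus strand of chr16:68264516-68301823) was at 12.9 and 14.6 TPM in sh-NC and at 21.2 and 19.3 TPM in sh-ANP32B, a log2 fold change of 0.53 (SE 0.102, adjusted p = 0.00977). SLC7A11 (ENSG00000151012, minus strand of chr4:138164097-138242349) was at 5.03 and 4.76 TPM in sh-NC and at 7.20 and 7.62 TPM in sh-ANP32B, a log2 fold change of 0.51 (SE 0.132, adjusted p = 0.0252). Both calls were near the fold limit. With median-of-ratios scaling in place of plain TPM, SLC7A6 (0.43) and SLC7A11 (0.43) were inside the limit, and with quantile normalization they were at 0.45 and 0.30. The call of SLC7A6 was also lost without sh-NC replicate 1 (0.44) or sh-ANP32B replicate 1 (0.46), and that of SLC7A11 without any 1 of the 4 libraries (adjusted p between 0.0672 and 0.101). SLC7A6 shares 3372 exonic bases with SLC7A6OS on the opposite strand, and SLC7A11 shares 865 with SLC7A11-AS1. How the authors' counting treated strand is not given in the sources used here, so the values of both genes are uncertain. SLC7A6OS itself was at 13.7 and 11.9 TPM in sh-NC and at 14.7 and 17.0 TPM in sh-ANP32B.

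The make-up of the 3 light chains among the 10 genes also differed between the groups. SLC7A5 made up 92.4% and 92.3% of the summed TPM of the 3 light chains in sh-NC against 82.0% and 82.6% in sh-ANP32B. The ratio of SLC7A5 to SLC3A2 was 0.916 and 0.998 in sh-NC against 0.799 and 0.838 in sh-ANP32B, with no overlap. The ratio of SLC7A5 to SLC7A6 went from 17.0 and 15.8 to 6.09 and 6.60. By contrast, the 3 light chains together stood at 0.991 and 1.08 times SLC3A2 in sh-NC and at 0.974 and 1.01 times in sh-ANP32B, and these ranges overlapped. These ratios are descriptions of 2 libraries a group with no test, and they concern RNA, not assembled transporters.

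Among the glutamine carriers, SLC1A5 showed the lowest log2 fold change of the 10 genes and SLC38A1 and SLC38A2 smaller differences. SLC1A5 (ENSG00000105281, minus strand of chr19:46774883-46788594) was at 318 and 331 TPM in sh-NC and at 169 and 172 TPM in sh-ANP32B. Its mean went from 325 ± 9.07 to 170.2 ± 2.27 TPM, 52.4% of the control level, with a log2 fold change of -0.93 (SE 0.040, limma adjusted p = 1.15e-04), and 2.31% of all tested genes had a lower one. On the opposite strand SLC1A5 shares 780 exonic bases with ENSG00000275719. The ratio of SLC1A5 to SLC7A5 was 1.45 and 1.43 in sh-NC against 1.31 and 1.35 in sh-ANP32B.

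SLC38A1 (ENSG00000111371, minus strand of chr12:46183063-46270017) was at 74.9 and 78.2 TPM in sh-NC and at 57.9 and 57.9 TPM in sh-ANP32B (log2 fold change -0.40, SE 0.050, adjusted p = 0.00216). Its neighbour SLC38A2 (ENSG00000134294, minus strand of chr12:46358188-46372773) was at 113 and 110.3 TPM in sh-NC and at 85.1 and 80.6 TPM in sh-ANP32B (log2 fold change -0.43, SE 0.050, adjusted p = 0.00159). Neither group pair overlapped, yet both stayed inside the fold limit, with 75.7% and 74.2% of the control level left. With median-of-ratios scaling SLC38A2 was called lower (-0.52, adjusted p = 0.00113). The ratio of SLC38A1 to SLC38A2 was 0.662 and 0.709 in sh-NC against 0.680 and 0.719 in sh-ANP32B, and it overlapped between the groups.

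SLC43A1, the partner-free carrier of large neutral amino acids, was not called. SLC43A1 (ENSG00000149150, minus strand of chr11:57484534-57515780) was at 110.3 and 104 TPM in sh-NC and at 86.0 and 83.1 TPM in sh-ANP32B, 79.1% of the control level (log2 fold change -0.33, SE 0.052, adjusted p = 0.00454). The 95% interval of its log2 fold change, -0.46 to -0.20, did not meet that of SLC7A5, -0.92 to -0.70, and both genes hold an E-box in the windows printed above. The difference between these genes was not itself tested, nor was any part of the E-box in it.

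SLC7A1, the carrier of cationic amino acids, fell. SLC7A1 (ENSG00000139514, minus strand of chr13:29509414-29595688) was at 53.2 and 57.2 TPM in sh-NC and at 32.4 and 31.8 TPM in sh-ANP32B. It kept 58.1% of the control level, with a log2 fold change of -0.76 (SE 0.063, adjusted p = 5.24e-04), and 4.45% of all tested genes had a lower one.

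SLC16A1, the lactate carrier, fell, whereas SLC16A3 was higher in sh-ANP32B. SLC16A1 (ENSG00000155380, minus strand of chr1:112911847-112957593) was at 118 and 113 TPM in sh-NC and at 70.5 and 71.4 TPM in sh-ANP32B, 61.6% of the control level (log2 fold change -0.69, SE 0.047, limma adjusted p = 2.96e-04). SLC16A1-AS1 on the opposite strand shares 231 exonic bases with it and was listed at no more than 4.68 TPM. SLC16A3 (MCT4), which mainly exports lactate, was at 327 and 271 TPM in sh-NC and at 450 and 404 TPM in sh-ANP32B (log2 fold change 0.52, SE 0.099, adjusted p = 0.00927). This call was lost with median-of-ratios scaling (0.42), without sh-NC replicate 2 (0.38) and without sh-ANP32B replicate 1 (0.44). The ratio of SLC16A1 to SLC16A3 went from 0.360 and 0.417 in sh-NC to 0.157 and 0.177 in sh-ANP32B, with no overlap.

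**Figure D2:**
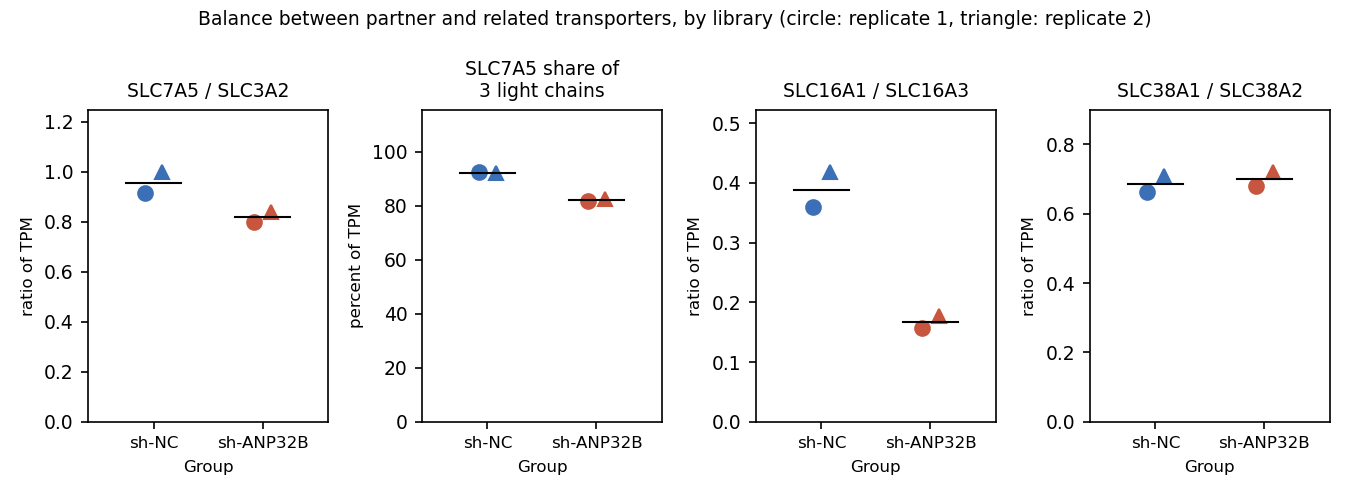
SLC7A5 to SLC3A2, SLC7A5 as a percent of the 3 light chains, SLC16A1 to SLC16A3 and SLC38A1 to SLC38A2, each from TPM, with a point for each library and a line at each group mean. The groups are apart in the first 3 panels, and SLC38A1 to SLC38A2 overlaps, at 0.662 and 0.709 in sh-NC against 0.680 and 0.719 in sh-ANP32B.

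BSG (basigin, CD147), the partner chain that brings both carriers to the surface, was at 459 and 488 TPM in sh-NC and at 470 and 484 TPM in sh-ANP32B. Its log2 fold change was 0.01 with a 95% interval from -0.10 to 0.12 (adjusted p = 0.870), and the direction turned to -0.09 with median-of-ratios scaling. The enzymes that make and use lactate differed too. LDHA, the subunit that favours making lactate, was at 897 and 740.3 TPM in sh-NC and at 435 and 405 TPM in sh-ANP32B (log2 fold change -0.96, adjusted p = 9.17e-04). LDHB, which favours its use, was at 1129 and 1089.9 TPM against 850 and 854 TPM (log2 fold change -0.38, adjusted p = 7.28e-04) and lay inside the fold limit. LDHD, a mitochondrial enzyme that uses D-lactate, was at 0.407 and 0.865 TPM against 14.8 and 17.5 TPM. LDHD was below the filter of 1 TPM in both sh-NC libraries and was tested only because of its level in sh-ANP32B, so no test of it is given. Of the 12 genes of monocarboxylate transport and lactate listed apart from SLC16A1, 10 were tested, of which 1 was called lower and 3, LDHD among them, higher. Over all tested genes the shares were 10.1% and 17.9%. The median of this list was 0.07. With at least 1 TPM in every library 2 were called higher, and without sh-ANP32B replicate 1 it was 1.

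**Figure D3:**
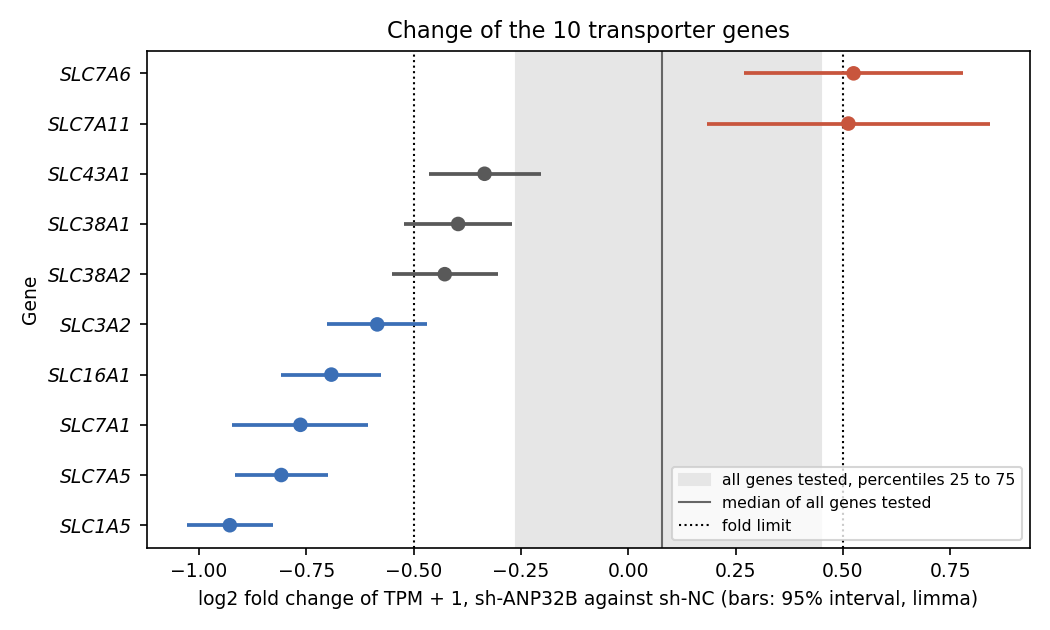
Log2 fold change, sh-ANP32B against sh-NC, of each of the 10 genes with its 95% interval, with lines at the fold limit and at the median of all tested genes. SLC1A5, at -0.93, lies lowest, 3 genes lie between the limit and zero, and SLC7A6 and SLC7A11 lie just past the limit on the other side.

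The scaling of the libraries bears on all of these values. The median of all tested genes lay at 0.08 under plain TPM, and it moved by -0.08 with median-of-ratios scaling and by -0.12 with quantile normalization. Of all calls, 36.1% were lower under plain TPM, 48.9% with median-of-ratios scaling and 50.2% with quantile normalization. Set against the median of all genes, SLC1A5 was at -1.01 under plain TPM and at -0.84 with quantile normalization, SLC7A5 at -0.89 and -0.74, and SLC3A2 at -0.66 and -0.49. SLC7A6 was at 0.45 and 0.49 on the same measure, and SLC7A11 at 0.43 and 0.34. No gene of the 10 changed direction under any alternative tried. The 5 genes called lower kept their calls under each alternative except a fold limit of 1 on the log2 scale.

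**Figure D4:**
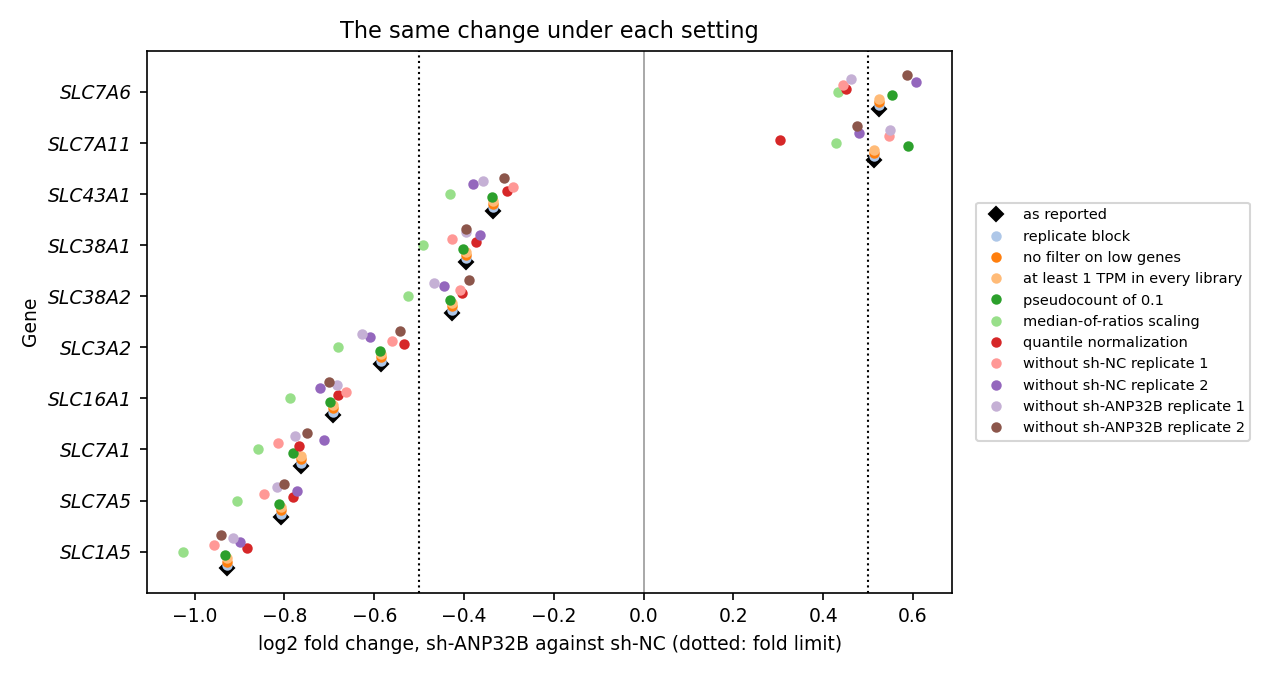
Log2 fold change of the 10 genes under each processing alternative, a point for each alternative. SLC7A6 and SLC7A11 scatter around the fold limit of 0.5, while SLC1A5, SLC7A5, SLC7A1, SLC16A1 and SLC3A2 stay below -0.5 throughout.

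The other amino acid carriers of the plasma membrane did not share one direction. Of 20 such genes 7 were tested, and 1 was called lower and 2 higher, against 10.1% and 17.9% of all tested genes. The median log2 fold change of the 7 was 0.11. The counts were 3 lower and 2 higher with median-of-ratios scaling, 3 lower and 1 higher without sh-ANP32B replicate 1, and 1 called higher with at least 1 TPM in every library or without sh-ANP32B replicate 2. Those called lower numbered 2 with quantile normalization, with a pseudocount of 0.1, and without either sh-NC replicate. SLC16A10 (TAT1, aromatic amino acids) was at 9.74 and 10.3 TPM in sh-NC and at 4.61 and 3.61 TPM in sh-ANP32B (log2 fold change -1.12, limma adjusted p = 0.00282). SLC6A6, the taurine carrier, was at 52.8 and 58.3 TPM against 103 and 95.2 TPM (0.82, adjusted p = 5.66e-04). SLC43A2 (LAT4), a relative of SLC43A1, was at 0.700 and 0.310 TPM in sh-NC and at 4.40 and 5.96 TPM in sh-ANP32B, and since it passed the filter only through the latter, no test of it is given.

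Carriers of the lysosome move amino acids, peptides and other compounds such as sialic acid across its membrane. Of the 12, all tested, 7 were called higher in sh-ANP32B, 0 were called lower and 5 were not called. Over all tested genes 17.9% were called higher and 10.1% lower. By the adjusted p alone 10 of the 12 were higher and 0 lower, against 26.0% and 19.7% of all tested genes. The median log2 fold change of the 12 was 0.62. SLC15A3, a peptide and histidine carrier, was at 7.48 and 7.62 TPM in sh-NC and at 28.8 and 27.2 TPM in sh-ANP32B (log2 fold change 1.76, limma adjusted p = 1.62e-04), and SLC17A5, the sialic acid carrier, was at 15.3 and 15.7 TPM against 40.2 and 41.2 TPM (1.33, adjusted p = 1.66e-04). The monocyte and macrophage markers given above moved the same way in the same libraries, and their part in these values was not tested.

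The amino acid response is driven by ATF4 when amino acids run short. Of 17 of its genes tested, 10 were not called, 6 were called lower (ATF4, ATF5, PSAT1, PHGDH, CTH and EIF4EBP1) and 1 higher (ASNS). Over all tested genes 10.1% were called lower and 17.9% higher. The median of the 17 genes was -0.37. ATF4 was at 384 and 409 TPM in sh-NC and at 230.4 and 216 TPM in sh-ANP32B (log2 fold change -0.83, limma adjusted p = 2.46e-04). PHGDH, the first enzyme of serine synthesis, was at 613 and 599 TPM against 275 and 260.0 TPM (-1.18, adjusted p = 8.53e-05). EIF4EBP1, which restrains translation when mTORC1 is inactive, was at 412 and 408 TPM against 196 and 205 TPM (-1.03, adjusted p = 9.69e-05). ASNS, the asparagine synthetase, was at 6.91 and 7.29 TPM against 12.2 and 10.5 TPM (0.61, adjusted p = 0.0117), but this call was lost with quantile normalization (0.45) and without sh-ANP32B replicate 1. SESN2, a leucine sensor in the same list, was at 35.4 and 34.4 TPM against 25.9 and 25.8 TPM (-0.42, adjusted p = 0.00408) and lay inside the fold limit.

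Of the genes that report amino acids to mTORC1, 34 were tested, with a median of 0.20. Among these, 1 was called lower and 8 higher, against 10.1% and 17.9% of all tested genes. These counts turned to 3 lower and 4 higher with median-of-ratios scaling and to 3 lower and 5 higher without sh-ANP32B replicate 1, and 2 were called lower with quantile normalization or without either sh-NC replicate. MLST8, a subunit of mTORC1, was at 213 and 221 TPM in sh-NC and at 141 and 127 TPM in sh-ANP32B (log2 fold change -0.70, limma adjusted p = 6.51e-04). SESN3, another sestrin, was at 1.79 and 1.49 TPM against 8.32 and 7.19 TPM (1.73, adjusted p = 8.92e-04), and CASTOR1, the arginine sensor, at 5.56 and 5.35 TPM against 12.8 and 12.0 TPM (1.05, adjusted p = 0.00132).

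Genes of glutamine and glutamate use were called lower in most cases. Of 12 tested, 7 were called lower (GOT2, GPT2, PPAT, CAD, PFAS, GMPS and CTPS1) and 0 higher, against 10.1% and 17.9% of all tested genes. By the adjusted p alone 9 were lower and 2 higher, against 19.7% and 26.0% of all tested genes. The median of the list was -0.58. GPT2, a mitochondrial transaminase, was at 65.2 and 69.1 TPM in sh-NC and at 36.3 and 37.0 TPM in sh-ANP32B (log2 fold change -0.86, limma adjusted p = 2.97e-04). PPAT, which uses glutamine in the committed step of purine synthesis, was at 38.8 and 38.2 TPM against 20.9 and 20.8 TPM (-0.85, adjusted p = 3.95e-04). GLUL, which makes glutamine, was at 324 and 329 TPM against 257 and 233 TPM (-0.41, adjusted p = 0.00248), inside the fold limit.

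**Figure D5:**
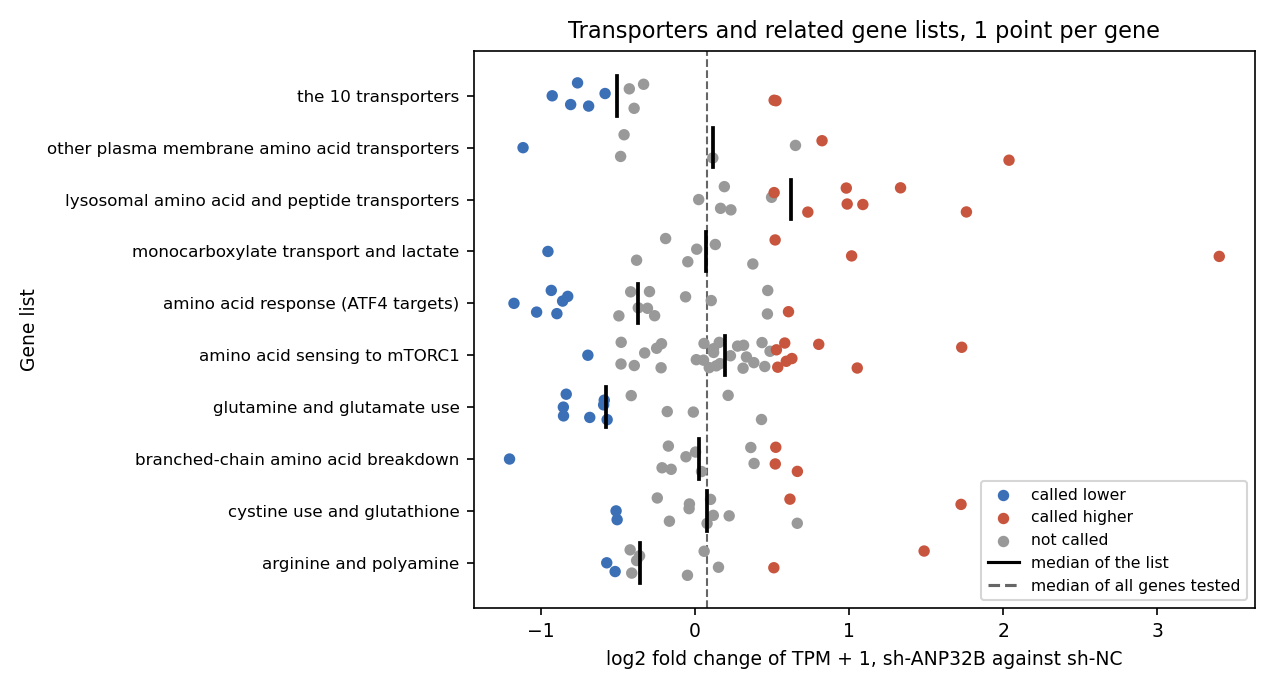
Log2 fold changes of the tested genes of each list, a point for each gene with a bar at the median of the list, sh-ANP32B against sh-NC. The medians were -0.51 for the 10 transporters, -0.58 for glutamine and glutamate use, -0.37 for the ATF4 list and 0.62 for the lysosomal carriers.

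Among MYC, MAX and their partners, 9 genes were tested, of which MYC was called lower and MXD4 and MLXIP higher. Over all tested genes 10.1% were called lower and 17.9% higher. MXD4, a partner of MAX that represses MYC targets, was at 19.1 and 20.6 TPM in sh-NC and at 72.6 and 75.8 TPM in sh-ANP32B (log2 fold change 1.85, limma adjusted p = 8.53e-05). MLXIP, a partner of MLX, was also higher (log2 fold change 0.72, adjusted p = 5.39e-04). Because the table holds 4 libraries in 2 groups, no relation between the level of MYC and that of a transporter across libraries could be tested.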

How the data were processed

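RNA from MV4-11 cells was sequenced in 2 sh-NC and 2 sh-ANP32B libraries. According to the submitters' processing notes, reads were aligned to hg38 with HISAT2 2.0.5. The authors deposited a table of TPM per gene and library. The unit was inferred from the values, which sum to between 997271 and 998546 in each library. TPM keep no read numbers, so neither the depth of a library nor a counting error could be computed, and the depth is unknown. The counting tool, the annotation and the handling of strand are not given in the sources used here. The sh-ANP32B libraries carry another code in the table header and were matched by replicate number.

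Of 18885 Ensembl identifiers, 17290 matched a symbol. Gene positions and shared exons were read from the GENCODE annotation (version 44, hg38). The study's own test needs read counts, so limma 3.58.1 in R 4.3.3 (lmFit, eBayes with a trend) was run on log2(TPM + 1) for every gene reaching 1 TPM in 2 or more libraries, with Benjamini-Hochberg adjustment over all 16937 genes. Fold changes on this scale understate those of low genes. Errors are SD over libraries. The scripts were tested on simulated data with 200 of 16937 genes changed. Of 100 genes changed by 0.8 on the log2 scale 44 were called, and of 100 changed by 1.5 it was 68. Of the unchanged genes, 4 were called. Genes not called can therefore include changed ones.

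The 10 transporters and the gene lists were chosen with earlier results of these data known. Apart from the 10 transporters, ANP32B and MYC, the text names from each list at most 2 called genes with the lowest and 2 with the highest log2 fold change, and also ATF4, SESN2, BSG, SLC16A3, LDHA, LDHB, ODC1, GLUL and BCAT1; all called genes are listed by name for 2 lists. A few items are not reported here. Alternatives were the replicate block, the filter, the pseudocount, the scaling, the call rule and leaving out each library.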

Additional observations from a re-analysis of the deposited data

How the results depend on the processing

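Leaving out a library leaves 1 in its group, which is then assumed to vary like the other group. For the genes called across the table, the number was 4736, or 4524 with the replicate block, which changed no call of the 55 genes followed singly (the 10 transporters among them). Replicate numbers did not pair the libraries (correlation of deviations -0.02). Without a fold limit 7747 genes and 8 transporters lower were called, and with a limit of 1 there were 1409 genes and 0 transporters in either direction. Transporters called higher numbered 0 with median-of-ratios scaling and with quantile normalization, and 0 to 1 without a library. The median of the 10 was -0.60 with median-of-ratios scaling, -0.47 with quantile normalization, and between -0.55 and -0.47 without a library. The log2 fold change of BSG was -0.0869 with median-of-ratios scaling and between -0.0337 and 0.0543 without a library. The cause of these differences was not tested.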

Other observations

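Downstream of SLC7A5 and SLC43A1, the breakdown of branched-chain amino acids held 12 tested genes, of which 1 was called lower and 3 higher. Over all tested genes 10.1% were called lower and 17.9% higher. The median log2 fold change of the 12 was 0.02. With median-of-ratios scaling or without sh-NC replicate 1, 1 was called higher. BCAT1, the cytosolic transaminase that acts first, was at 28.9 and 28.2 TPM in sh-NC and at 12.7 and 11.0 TPM in sh-ANP32B (log2 fold change -1.21, limma adjusted p = 4.76e-04). IVD, the isovaleryl-CoA dehydrogenase of leucine breakdown, was at 46.1 and 46.0 TPM against 73.1 and 73.9 TPM (0.66, adjusted p = 3.77e-04).

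Downstream of SLC7A11, cystine use and glutathione held 13 tested genes. Among these, 2 were called lower and 2 higher, against 10.1% and 17.9% of all tested genes. Those called lower numbered 0 without sh-NC replicate 1, and 1 with quantile normalization or without sh-ANP32B replicate 1. TXN, the thioredoxin, was at 463 and 441 TPM in sh-NC and at 317 and 316 TPM in sh-ANP32B (log2 fold change -0.51, limma adjusted p = 4.23e-04), a call lost with quantile normalization (-0.48) and without sh-NC replicate 1 (-0.48). GPX1, a glutathione peroxidase, was at 664 and 662 TPM against 982 and 1052 TPM (0.62, adjusted p = 3.35e-04). GGT1, which breaks down glutathione outside the cell, was at 32.3 and 32.7 TPM against 108 and 112 TPM (1.73, adjusted p = 6.16e-05), and is uncertain because it has near-identical copies.

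Downstream of SLC7A1, the arginine and polyamine list held 11 tested genes. Among these, 2 were called lower and 2 higher, against 10.1% and 17.9% of all tested genes. The counts were 4 lower and 1 higher with median-of-ratios scaling. Without sh-NC replicate 2 or sh-ANP32B replicate 1, 1 was called higher. ODC1, which makes putrescine from ornithine, was at 174 and 178 TPM in sh-NC and at 123 and 123 TPM in sh-ANP32B (log2 fold change -0.52, limma adjusted p = 4.07e-04). ASS1, which makes the precursor of arginine, was at 196 and 198 TPM against 129.5 and 135 TPM (-0.57, adjusted p = 3.50e-04). ASL, which makes arginine from that precursor, went the other way, at 100 and 93.3 TPM against 145 and 132 TPM. Its log2 fold change of 0.51 (adjusted p = 0.00218) was near the fold limit. SAT1, which breaks polyamines down, was at 58.0 and 57.0 TPM against 161 and 165 TPM (1.49, adjusted p = 6.16e-05).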
